A study of Mus musculus with 2 samples.

Results

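The growth hormone receptor and STAT5 pathway was examined in mouse liver through 10 genes: Ghr, Jak2, Stat5a, Stat5b, Socs2, Socs3, Cish, Igf1, Igfals and Bcl6. The members were taken by symbol, and every probe set that the platform annotation gives to 1 of these symbols alone was taken, which gave 26 probe sets. They stand among 18193 genes named on the array, of which 11163, including all 10 members, had a probe set above the signal floor described below. The animals were male C57Bl/6J mice, 9 weeks old before an acclimatisation of 1 week, that were depleted of n-3 fatty acids by a diet in which sunflower oil replaced the soybean oil. The feeding lasted 112 days, and this diet held 127.2 times as much n-6 as n-3 fatty acid. In the last 10 days the DEF/FOS mice stayed on it and drank fructooligosaccharides, a fermentable fibre, at 0.25 g per day, whereas the DEF/CT mice went back to the soybean oil control diet, where that ratio was 6.9. The protocol names 8 mice for each of these groups, and liver RNA of a group was pooled in equal amounts, from 4 to 8 mice per group, for a single array. Mice that stayed on either diet without a change were not analysed here. The pools differ in both the fibre and the oil, and the effects of these cannot be told apart.

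Growth hormone from the pituitary binds its receptor on hepatocytes, and the receptor-bound kinase JAK2 then phosphorylates the transcription factors STAT5A and STAT5B. Phosphorylated STAT5 enters the nucleus, binds sites of the form TTCNNNGAA, and activates Igf1 and Igfals. Igf1 codes for circulating insulin-like growth factor, and Igfals for a subunit that holds this factor in plasma. STAT5 also activates Socs2 and Cish, whose proteins dampen the receptor in return. In male mice, the pulsed release of the hormone also sustains a set of male-biased liver genes. The arrays measured mRNA only, so neither phosphorylation of STAT5 nor plasma hormone was recorded.

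Values are MAS5 signals, the probe set brightness on a linear scale, and the signal floor was the median signal of the array, 19.4. Differences are log2 signals of DEF/FOS minus DEF/CT, centred on their median above the floor, so a negative value means lower in DEF/FOS, and folds come from these centred differences. With 1 array per group no difference has a replicate check, a standard error or a p-value. In their place, the SD between probe sets that read 1 gene was taken as a technical yardstick: it was 0.16 at signals above 249, 0.26 at signals from 91.8 to 249 and 0.38 at signals from 40.2 to 91.8. Variation among animals or arrays is not part of this yardstick. The trimmed mean signal was 100.00 in both pools. Hepatocyte markers had a median difference of -0.03 over 9 genes, with none 1.5-fold apart, and all 9 were above the floor in both pools.

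Letters that fit a STAT5 site were looked for in promoter windows of 250 bases before and 50 bases after the gene start, taken from RefSeq in the build GRCm38.p6. Windows were listed for 9 of the 10 genes, all except Socs2. The letters TTCNNNGAA, which read the same on both strands, occurred in at least 1 window of Cish, Bcl6, Igfals and Socs3. They occurred in 8.30% of all 32851 windows, and 9.55% of all genes had at least 1 such window. The windows of Ghr, Jak2, Stat5a, Stat5b and Igf1 did not hold these letters. Sites outside the windows were not looked for, so these genes may have such sites elsewhere. The stretches around the matches are shown 5′ to 3′ on the strand of the gene, with the matches in capitals, because Cish, Bcl6, Igfals and Socs3 are the members whose signals can be read beside such sites.
Cish, chr9:107296639-107296688, plus strand: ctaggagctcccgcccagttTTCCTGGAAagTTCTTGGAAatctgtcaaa
Bcl6, chr16:23981343-23981471, minus strand: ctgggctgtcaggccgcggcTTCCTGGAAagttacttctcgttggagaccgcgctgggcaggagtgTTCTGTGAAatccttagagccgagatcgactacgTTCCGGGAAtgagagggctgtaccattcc
Igfals, chr17:24877594-24877636, plus strand: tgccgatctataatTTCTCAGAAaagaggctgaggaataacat
Socs3, chr11:117969492-117969540, minus strand: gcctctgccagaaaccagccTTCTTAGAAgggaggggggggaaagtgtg

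The Cish window held 2 matches, at bases 1 to 9 and 12 to 20 counted from the first transcribed base, and 0.457% of all windows held 2 or more. The Bcl6 window shown held 3, starting at bases -168, -122 and -88, and 11 windows in all held 3 or more. The Igfals match starts at base -236 and the Socs3 match at base -154. The other Bcl6 window and the other Igfals window with a match held 1 each. The Bcl6 and Socs3 stretches precede an inner start and lie within the span that RefSeq gives the gene, whereas the Igfals stretch lies before that span and the Cish stretch covers its first base. A match describes the letters and was not tested for binding.

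The receptor mRNA was lower in the DEF/FOS pool in each of its probe sets. Ghr, the growth hormone receptor gene on which the whole pathway depends, had a signal of 2908 in DEF/FOS and 4224 in DEF/CT by its brightest probe set, 1417962_s_at. This is a difference of -0.52, or 1.44-fold lower. The other probe sets read 2079 against 3275, a difference of -0.64, and 452 against 589.7, a difference of -0.37. All 3 differences were larger than the yardstick of 0.16 at this signal, and they spread from 1.29-fold to 1.56-fold lower. When genes were put into 4 classes of signal, the brightest held 3442 genes with signals above 249, of which 3.08% were as far below 0 as Ghr. All 3 probe sets have IDs of a kind that may match several transcripts.

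The kinase differed little. Jak2, the tyrosine kinase held by the receptor's cytoplasmic part, had signals of 180.3 and 199 in DEF/FOS and DEF/CT (1421066_at), a difference of -0.13. Its second probe set read 68.3 against 73.8, a difference of -0.10. Both lay within the yardstick of 0.26 and 0.38 at those signals, and 30.8% of genes in that class of signal were as far below 0.

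The paired STAT5 genes gave unlike readings. Stat5b, which codes for the main STAT5 protein of liver, had a signal of 128 in DEF/FOS and 174 in DEF/CT (1422103_a_at), a difference of -0.43 or 1.35-fold lower. Its dimmer probe set read 62.4 against 66.2, a difference of -0.07, within its yardstick of 0.38. The lower reading of Stat5b therefore rests on 1 of 2 probe sets. Stat5a had 142 against 137 (1421469_a_at), a difference of 0.06, and 26.6 against 33.4 by its dimmer probe set, a difference of -0.32 with a yardstick of 0.61. The Stat5a probe sets disagreed in sign and neither passed its yardstick. All of the Stat5a and Stat5b probe sets have IDs of a kind that may match several transcripts. Separately, the 2 genes are close relatives in sequence, and cross-hybridisation between them was not tested.

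**Figure D1:**
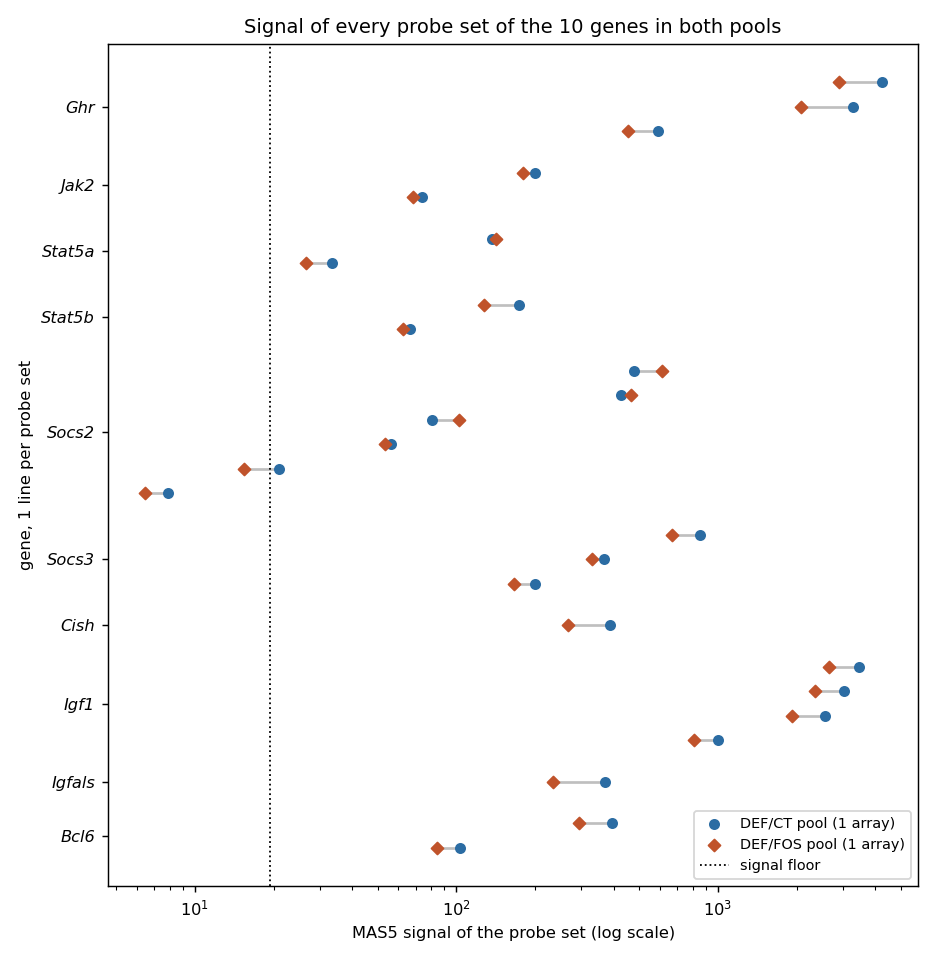
MAS5 signal of each of the 26 probe sets of the 10 genes, on a log scale, in the DEF/FOS pool (diamonds) and the DEF/CT pool (circles), 1 array each, with the signal floor of 19.4 as a dotted line. The DEF/FOS signal lies to the left for every probe set of Ghr, Igf1, Igfals, Cish, Bcl6 and Socs3 and to the right for the 3 brightest of Socs2, and 2 dim probe sets of Socs2 have mean signals below the floor.

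Igf1 and Igfals, members that code for parts of the circulating growth factor complex, were lower in DEF/FOS. Igf1, the insulin-like growth factor that liver sends into the blood, had signals of 2659 and 3452 in DEF/FOS and DEF/CT (1452014_a_at), a difference of -0.36 or 1.29-fold lower. Its other probe sets read 2357 against 3021, 1913 against 2555 and 808 against 999.5. The 4 differences of Igf1 lay between -0.40 and -0.29, a narrow range, and each was larger than the yardstick of 0.16. Igfals, the acid-labile subunit that holds IGF1 in a long-lived complex in plasma, read 233 in DEF/FOS and 369.6 in DEF/CT (1422826_at). Its difference of -0.65, 1.57-fold lower, was the largest of the 10 genes, and 1.54% of genes in the brightest class of signal were as far below 0. Igfals has 1 probe set named for it, so this value has no second reading. Igfbp3, the main binding protein of the same complex, read 61.9 against 67.7, a difference of -0.11 that lay within the yardstick of 0.38. Its other probe set above the floor, a dimmer one, gave -1.05, so the 2 readings of Igfbp3 shared a sign but disagreed in size.

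Among the feedback inhibitors, Cish and Socs3 were lower and Socs2 was higher in DEF/FOS. Cish, a STAT5 target whose protein binds the activated receptor, had a signal of 266 in DEF/FOS and 386 in DEF/CT by its only probe set, 1448724_at, a difference of -0.52 or 1.44-fold lower. Socs3, which is induced mainly by cytokines of the interleukin-6 family through STAT3, read 669.5 against 854 (1455899_x_at), a difference of -0.34. Its other probe sets gave -0.13 and -0.26, so all 3 pointed the same way. Of these, -0.13 lay within its yardstick of 0.16 and -0.26 equalled its yardstick to 2 decimals. Socs2, a STAT5 target and the inhibitor whose loss in mice causes gigantism, ran the other way.

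Socs2 read 612 in DEF/FOS and 477 in DEF/CT by 1449109_at, a difference of 0.37 or 1.30-fold higher. Its next probe sets read 464 against 427, a difference of 0.13, and 102 against 80.5, a difference of 0.35. The fourth was level, at 53.3 against 56.2, a difference of -0.06. Only the brightest of these passed its yardstick, so the direction of Socs2 is carried mainly by 1 probe set. The 2 probe sets with a mean signal below the floor, at 15.4 against 20.9 and 6.42 against 7.86, were left out. The differences of Socs2 and Cish, both known as STAT5 targets, stood 0.90 apart on the log2 scale.

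Bcl6, a transcriptional repressor that STAT5 is known to hold down in liver and that binds many of the same sites, was also lower in DEF/FOS. Its probe sets read 295 against 395 (1421818_at), a difference of -0.41 or 1.32-fold lower, and 84.1 against 103, a difference of -0.28. Both readings passed their yardsticks of 0.16 and 0.26, the second narrowly. Bcl6 was thus lower beside Cish, Igf1 and Igfals, which STAT5 is known to activate.

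**Figure D2:**
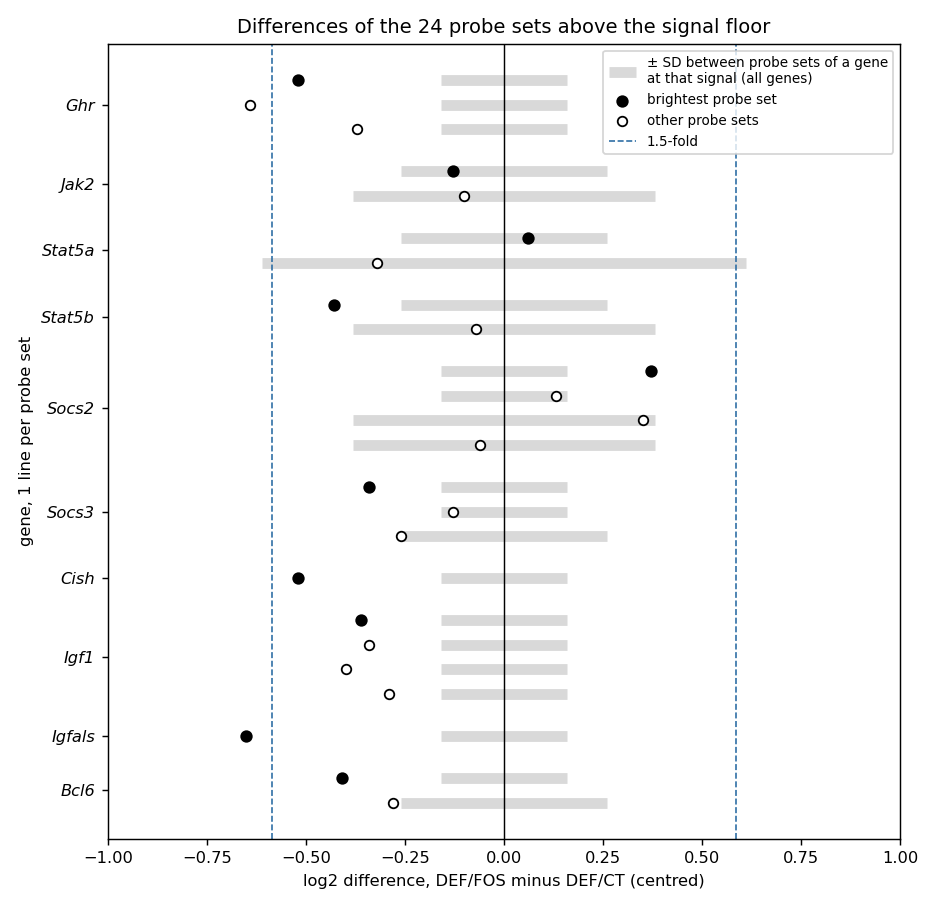
Centred log2 difference, DEF/FOS minus DEF/CT, of the 24 member probe sets above the signal floor, with the brightest probe set of each gene filled, dashed lines at 1.5-fold and gray bars for the SD between probe sets of a gene at that signal over all genes. The 4 points of Igf1 and the 3 of Ghr lie left of their bars, those of Jak2 lie inside, and the brightest of Socs2 lies to the right at 0.37.

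Taken by the brightest probe set of each gene, 8 of the 10 members were below 0, where 50.0% of all genes above the floor were. The size of 8 of the 10 differences passed the yardstick, all except Jak2 and Stat5a, where 40.1% of all genes passed the yardstick of their class. That share covers all 4 classes of signal, whereas the members lay only in the brightest class and the next one. The SD of differences over genes was 0.33 beside a yardstick of 0.16 in the brightest class, and 0.71 beside 0.61 in the dimmest. Bright genes thus pass more readily, and the share in the members' own classes was not counted. The members' differences ran from -0.65 to 0.37 with a median of -0.38. After centring on the probe sets, the median over all genes above the floor was -0.00. At the probe set level, 20 of the 24 readings above the floor were below 0, where 49.3% of all 19357 such probe sets were. Probe sets of 1 gene share their RNA and are not independent readings of the pathway.

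The differences were moderate in size. At 1.5-fold, 1 member was lower in DEF/FOS, namely Igfals, where 7.82% of all genes were, and 0 members were higher, where 6.75% of all genes were. The share of 1 in 10 is near the background. At 1.2-fold, a limit chosen after the data had been seen, 7 members were lower, namely Ghr, Stat5b, Socs3, Cish, Igf1, Igfals and Bcl6, where 22.8% of all genes were. With the median over probe sets in place of the brightest, 5 members were, as Stat5b at -0.25 and Socs3 at -0.26 fell short of the limit. At the same limit Socs2 was the 1 member higher, where 21.6% of all genes were. No member was 2-fold apart.

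**Figure D3:**
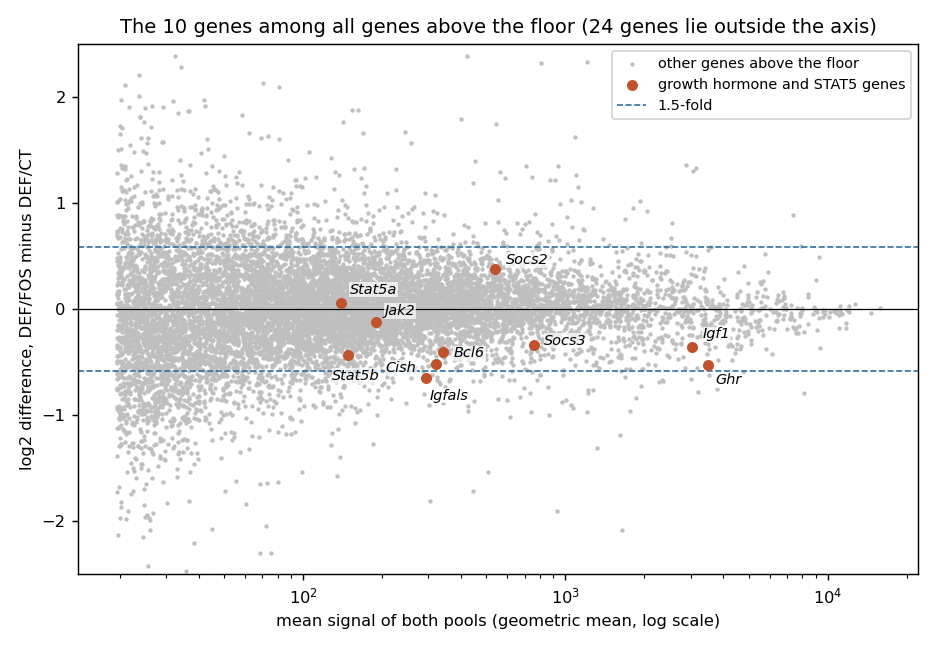
Centred log2 difference, DEF/FOS minus DEF/CT, against the mean signal of both pools (log scale) for the 11163 genes above the floor, each by its brightest probe set, with the 10 genes marked and dashed lines at 1.5-fold. Igfals alone of the 10 passes the lower line, and Ghr and Igf1 lie at bright signals where most genes sit close to 0. Of the 11163 genes, 24 lie outside the axis.

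The wider pathway was described from gene lists around the members. Partners and negative regulators of the receptor were balanced: among the 21 that passed the floor, DEF/FOS was 1.5-fold or more lower for 1 and higher for 1, with a median difference of -0.03. The higher gene was Cbl, a ubiquitin ligase of activated receptors, at 142 against 95.0. The lower gene was the docking adaptor Gab1, at 99.8 against 155, with all 3 probe sets below 0. Ptpn1, a phosphatase that acts on JAK2, was 1.39-fold higher at 370.1 against 268 in 2 of 2 probe sets, and Pias3, a STAT inhibitor, was 1.42-fold lower at 41.5 against 59.8.

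Other JAK and STAT genes gave a median of 0.06 over 6 genes. Jak3, a kinase of lymphocytes, was 1.93-fold lower at 29.1 against 56.7, and Jak1 and Stat2 were each within 1.10-fold. Stat3, the mediator of interleukin-6 signals, read 585 against 492, a difference of 0.27, but its 4 probe sets split evenly in sign.

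The insulin-like growth factor binding proteins went both ways. Igfbp1, a binding protein that insulin represses and that restrains IGF1, read 6855 in DEF/FOS and 4833 in DEF/CT, 1.43-fold higher. Igfbp2, another liver-made binding protein, read 3649 against 2839, 1.30-fold higher. The receptor gene Igf1r was 1.30-fold higher at a low 54.0 against 42.1, and Igfbp5 was 1.23-fold lower at 24.4 against 30.4. By these probe sets, Igf1r at 0.37 lay within its yardstick of 0.38 and Igfbp5 at -0.30 within its yardstick of 0.61. Igfbp4, another binding protein made in liver, read 4644 against 5143, a difference of -0.13 with all 6 probe sets below 0. Igfbp7 differed by -0.07 by its brightest probe set, but its 3 probe sets ran from -1.65 to 0.71, with 2 below 0 and 1 above. Over the 9 genes of this list above the floor, 0 were 1.5-fold apart and the median was -0.11.

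Receptors and early targets of the interleukin-6 family, listed because Socs3 is one of their targets, went both ways. Of 11 genes, 4 were at least 1.5-fold higher and 1 lower in DEF/FOS, with a median of 0.06. Among all genes above the floor, 6.75% were that much higher and 7.82% that much lower. Cebpb and Cebpd, transcription factors of the acute phase, were 1.74-fold and 1.58-fold higher, and the liver-secreted protein gene Fgl1 was 1.80-fold higher at 2256 against 1268. Lifr, the leukaemia inhibitory factor receptor, was 1.91-fold lower at 767 against 1478, with 3 probe sets between -1.07 and -0.88. Of the same list, Saa1, Saa2 and Hamp were level, with differences of 0.03, 0.07 and -0.03, and Junb differed by -0.50. Socs3 itself was on the lower side, as given above.

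Further genes known as STAT5 targets had a median of -0.18 over 7 genes, with Ccnd1 at the high end. Ccnd1, the G1 cyclin, read 739 against 216, 3.46-fold higher. Bcl2l1, an inhibitor of cell death, was 1.29-fold lower and the kinase gene Pim1 1.21-fold lower, and neither had probe sets of 1 sign. For Bcl2l1 the opposing reading was the larger, at 1.96 against -0.36 by the brightest of its 3 probe sets, and for Pim1 it was 0.04. Osm was below the floor in DEF/FOS and at least 1.49-fold lower.

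A list of genes known to rise in liver that lacks STAT5, most of them genes of lipid uptake and storage such as Cd36 and Pparg, had 4 of 6 genes at least 1.5-fold higher in DEF/FOS, 0 lower and a median of 0.64. Cd36, the fatty acid translocase, read 242 against 124, 1.97-fold higher with all 3 probe sets above 0. Pparg, the adipogenic nuclear receptor, was 1.54-fold higher at 43.2 against 28.3. The lipoprotein receptor gene Vldlr was 1.58-fold higher, and the droplet protein gene Cidec at least 2.33-fold higher. Except for Cd36, these 4 genes had mean signals under 91.8, where the yardstick was 0.38 or 0.61. The lower ones were Lpl, the lipoprotein lipase gene, at -0.20 with 2 probe sets of opposite sign, and Prom1, a membrane protein gene also on the female-biased list, which was below the floor in DEF/FOS.

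Male-biased outputs of the hormone had 9 of 14 genes at least 1.5-fold lower in DEF/FOS and 0 higher, with a median of -0.65. Among all genes above the floor, 7.82% were that much lower and 6.75% that much higher. Serpina12, an adipokine also made in male liver, read 1066 against 2456. The probe sets of Serpina12 disagreed in size, with a difference of -1.19 by the one given and -0.25 by the other. The female-biased list held 18 genes, of which 13 had a probe set named for them alone and only 6 passed the floor. Of these 6, 2 were higher by 1.5-fold or more and 0 lower, so most of that list gave no usable reading. Liver factors that act beside STAT5 had a median of -0.10 over 9 genes with 0 of them 1.5-fold apart. Among them Hnf4a was 1.19-fold and Foxa3 1.31-fold higher, and Foxa1 was 1.33-fold and Cebpa 1.21-fold lower.

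**Figure D4:**
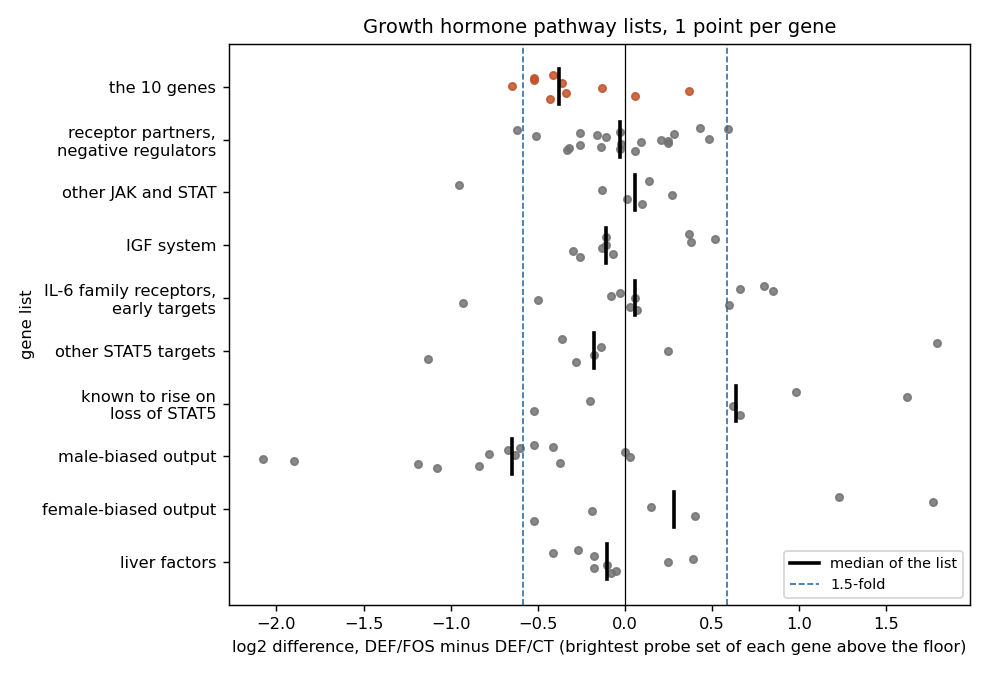
Centred log2 difference, DEF/FOS minus DEF/CT, of each gene above the floor by its brightest probe set, for the 10 genes and the 9 lists around them, with the median of each list as a black bar and dashed lines at 1.5-fold. The median lies at -0.38 for the 10 genes, -0.65 for male-biased outputs and 0.64 for genes known to rise on loss of STAT5, and between -0.18 and 0.28 for the other lists.

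The pools also differed in markers of cell types other than hepatocytes. The 1.5-fold counts below stand beside shares of 7.82% lower and 6.75% higher among all genes above the floor. All 12 skeletal muscle markers were at least 2-fold lower in DEF/FOS, with a summed signal of 164 against 2839, and 4 of the 12 were above the floor in DEF/FOS. B cell and plasma cell markers had summed signals of 358 and 1029, with 3 of 4 genes above the floor at least 1.5-fold lower. Most of this sum was Ighm, the immunoglobulin heavy chain gene, at 243 against 809, whose 5 probe sets ran from -1.72 to 0.23, and the other 5 markers summed to 115 and 220.0. Neutrophil markers ran the other way at 376 against 186, with 2 of 5 at least 1.5-fold higher. These were S100a8, at 147 against 33.8, and S100a9, at 109.6 against 35.1, and they made up most of the DEF/FOS sum. Of the others above the floor, Ngp read 32.5 against 30.6, Csf3r 30.6 against 22.4 and Elane 20.0 against 24.9. Kupffer cell and macrophage markers were also higher, at 4401 against 3693, with 1 of 11 at least 1.5-fold higher. T and NK cell markers summed to 126 and 137, but only 2 of the 8 passed the floor, so most of that list gave no usable reading. Stellate cell markers summed to 2508 and 2702 and endothelial markers to 1762 and 1815, with 0 genes of either list 1.5-fold apart, and cholangiocyte markers to 129 and 99.0. Muscle and lymphoid cells also express several members, among them Igf1, Ghr, Cish and Bcl6, and the part of these cells in the differences was not tested. In pooled tissue, fewer cells of a type and less RNA per cell cannot be told apart.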

How the data were processed

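Liver RNA of 2 groups of mice was pooled by group, labelled and put on Affymetrix GeneChip arrays, 1 per pool, per the labels' protocols. Each deposited value is a MAS5 intensity, not log-transformed, and the table holds 45101 probe sets. GCOS and MAS5 come from the submitters' processing notes, and versions and settings are not given in the sources used here. The deposited intensities had equal trimmed means (2% left out at each end), so each array was scaled before deposit, which fixes the mean but not the median: it was 19.6 in DEF/FOS and 21.9 in DEF/CT. No detection calls were used here, and the number of arrays limits the precision.

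The 64 array controls were left out. The platform annotation, which can be old, gave 1 gene symbol to 34945 probe sets and several to 932, and 9160 were unnamed. All 10 member symbols matched a RefSeq gene table of GRCm38.p6 through their Entrez identifiers. Differences of log2 signal were centred by 0.01 and each gene was read from its brightest probe set. The floor was the median signal over probe sets. A fold against a pool below the floor was computed against the floor and is a lower bound. The steps were tested on simulated data, in Python 3.11.15 with numpy 2.4.6 and pandas 2.3.3. The simulation planted changes of at least 2-fold in probe sets above the 75th percentile of signal. Recovery of smaller differences, such as those of the members, was not tested.

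All members were described, and up to 4 genes of each other list with the largest difference were named by rule. Genes of the cell type lists were given by their sums, except Ighm and the neutrophil markers above the floor. Of the sex-biased lists, Serpina12 and Prom1 were named. Igfbp3, Igfbp4, Igfbp7, Lpl, Saa1, Saa2, Hamp and Junb were added after their values had been seen. The members and lists were chosen with earlier results of these data known, so they are no independent support for any pattern. The 9 alternatives changed the scaling, the offset, the floor and the choice of probe sets.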

Additional observations from a re-analysis of the deposited data

How the results depend on the processing

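The count of members at least 1.5-fold lower was 1 under all 9 alternatives and the count at least 1.5-fold higher was 0. The median difference of the members lay between -0.42, with quantile normalization, and -0.30, with the median over probe sets. All members except Stat5a kept their sign under these alternatives wherever they had a value: Ghr lay between -0.54 and -0.52, Igf1 between -0.38 and -0.34, Igfals between -0.70 and -0.59, Cish between -0.56 and -0.48 and Socs2 between 0.24 and 0.37. Stat5a was -0.13 with the median over probe sets, against 0.06. With probe sets of IDs ending in _s_at, _x_at or _a_at left out, Ghr, Stat5a and Stat5b had no value, and 4 of the 7 members left were at least 1.2-fold lower. The receptor partners had a median of 0.18 with the median over probe sets, against -0.03, and the female-biased list 1.23 above the 75th percentile of signal. No paired analysis was possible because each group has 1 array, and no array could be left out. At signals near the floor, differences under the yardstick of 0.61 could not be told from the spread between probe sets.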
